A study of Mus musculus with 53 samples.

Results

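Carbon tetrachloride (CCl4) poisoning and partial hepatectomy both make the liver regrow, and the measurements here set the 2 responses against each other in wild-type mouse liver. The members were chosen by label alone: all wild-type libraries of the CCl4 and hepatectomy experiments, 20 of the 53 livers of the series. For each gene, the change after CCl4 (CCl4 minus olive oil) and the change after hepatectomy (day 3 minus day 0) were estimated in one fit, and the first minus the second, called the difference of responses here, was tested. Messenger RNA was sequenced from snap-frozen whole liver of male C57BL/6J mice, 16 weeks old, all wild type; the series' Bmp8b knockout mice enter only an alternative given at the end. The first group holds 4 livers (mice 4, 5, 7 and 34) taken 3 days after an intraperitoneal injection of 2 µl per g body weight of CCl4 and olive oil, mixed in equal volumes. Its control group holds 6 livers (mice 24, 26, 27, 28, 29 and 30) taken 3 days after 2 µl per g of olive oil alone. The hepatectomy group holds 5 livers (mice 12 to 16) taken 3 days after surgery, called day 3, and its baseline holds 5 pieces of liver with the same mouse numbers, removed at surgery and called day 0. The day 0 tissue is thus resected liver, not liver of sham-operated mice, and the hepatectomy mice received no olive oil. The labels do not say that equal mouse numbers at day 3 and day 0 mark 1 mouse, and 2 of the 5 numbers are written differently on the 2 days, so the groups were fitted as independent.

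CCl4 is a hepatotoxin that cytochrome P450 enzymes, above all Cyp2e1, turn into a radical. Those enzymes are concentrated in the hepatocytes around the central vein, which is where CCl4 kills cells, and macrophages clear the debris while surviving hepatocytes divide. Partial hepatectomy removes whole lobes and leaves the remaining lobes without a zone of dead cells. The hepatocytes left behind then divide until liver mass is restored, so both challenges start the cell cycle and only the toxin leaves necrotic tissue.

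Each library held 2528341 to 6914274 counted reads, and 99.4% to 99.8% of them fell on the 36410 genes present in both count tables. A count of 0 allows a level of up to 0.406 to 1.15 CPM depending on the library, and such limits cover counting error only. Levels are given in CPM, reads of a gene relative to the library's total after TMM normalization. The hepatocyte genes Alb, Apoa1, Ttr and Serpina1a were high in every liver, with Alb at no less than 32220 CPM. CCl4 liver 34 stood apart from the other 3 of its group in several gene groups, among them mitosis genes (low) and neutrophil genes (high), and several counts are therefore given again without it. Its summed neutrophil level was 428.9 CPM, against 10.2 CPM in the lowest CCl4 liver and 4.71 to 36.4 CPM after olive oil. As a mean over 4 tested neutrophil genes, CCl4 livers 4, 5, 7 and 34 stood at 1.73, -0.683, 0.218 and 4.82 log2 from the olive oil mean. The olive oil livers carried 2 different i5 index sequences, D504 in livers 24, 26 and 27 and D505 in livers 28, 29 and 30, and 209 of 11568 genes differed between these 2 sets (edgeR, Benjamini-Hochberg adjusted p under 0.05). CCl4 livers 4, 5 and 7 carried D503, which no olive oil liver carried, and CCl4 liver 34 carried D505. The part of index in the values of liver 34 was not tested. All day 3 livers carried D507 and no other liver did, so index and day cannot be told apart. The 2 tables list different numbers of genes, 38293 for the CCl4 experiment and 53379 for hepatectomy, and for 1031 of the tested genes the olive oil and day 0 means were over 2-fold apart. Levels are therefore compared only within a table.

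Among 11568 tested genes, 228 had a called difference of responses (1.97%, edgeR quasi-likelihood test, Benjamini-Hochberg adjusted p under 0.05). The difference was lower for 172 genes (1.49%), meaning that CCl4 left them lower, relative to olive oil, than hepatectomy did relative to day 0. It was higher for 56 genes (0.484%). At an unadjusted p under 0.05 there were 2076 genes. CCl4 changed 3415 genes (29.5%), of which 1824 rose (15.8%) and 1591 fell (13.8%). Hepatectomy changed 767 (6.63%), of which 487 rose (4.21%) and 280 fell (2.42%). The median log2 change over all tested genes was 0.05 after CCl4 and -0.000122 after hepatectomy, and the median of the difference was 0.02. The SE of a difference had a median of 0.34, so at these group sizes a small gap between the responses was within error. The count rested on single livers: it was 438 without CCl4 liver 7 and also without liver 34, 132 without day 0 liver 13 and also without liver 16, 147 without day 0 liver 14, 135 without day 0 liver 15 and 138 without day 3 liver 13. The count of hepatectomy responses was 1510 without CCl4 liver 34.

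The 228 genes fell into 5 classes by which response was itself called. Of these, 190 belonged to the toxin class (1.64% of tested genes), with a called CCl4 response and no called hepatectomy response: 147 fell and 43 rose after CCl4. The resection class (0.147%), with a called hepatectomy response and no called CCl4 response, held 17 genes, 8 of which rose and 9 of which fell at day 3. Both responses were called with opposite signs for 3 genes (0.0259%) and with the same sign but unequal size for 16 (0.138%), in all 16 of which the CCl4 change was the larger. The remaining 2 (0.0173%), Cyp3a59 and Polr1c, had a called difference and neither response called. In comparison, 544 genes (4.70%) changed in the same direction after both challenges with no called difference, 362 upward and 182 downward. With 1 liver left out, the toxin class held between 114 genes (without day 0 liver 15) and 379 (without CCl4 liver 7), the resection class between 7 (without day 3 liver 12 or day 0 liver 13) and 30 (without CCl4 liver 34), the unequal class between 5 (without day 0 liver 16) and 93 (without CCl4 liver 34) and the shared genes between 399 (without day 3 liver 15) and 930 (without CCl4 liver 34).

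**Figure D1:**
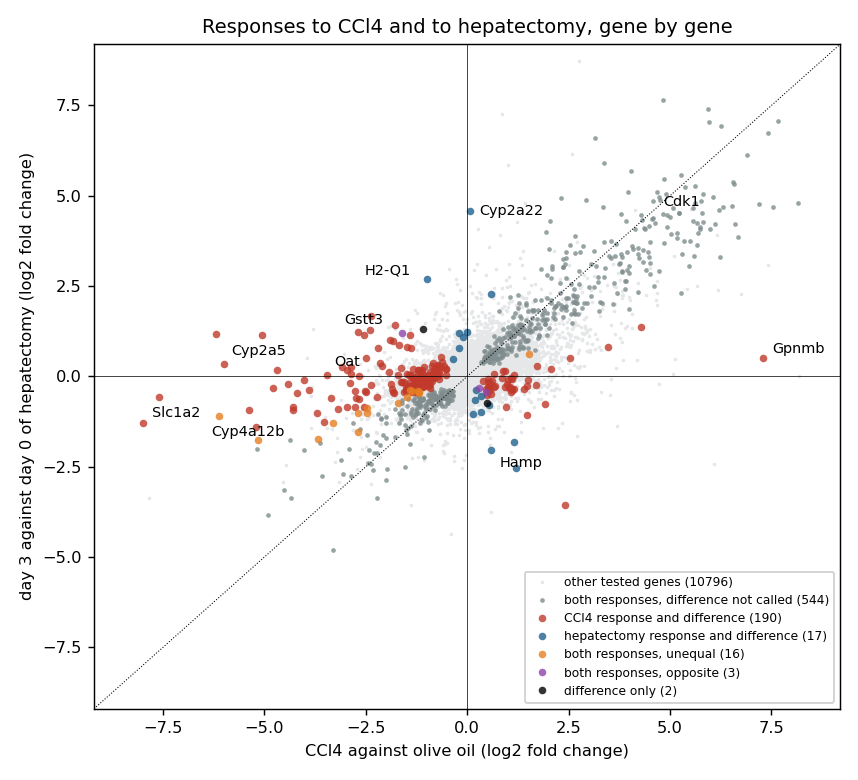
Log2 fold change after CCl4 against olive oil (horizontal) and at day 3 against day 0 of hepatectomy (vertical), one point per tested gene, coloured by class with the number of genes in brackets; the dotted line marks equal responses. The 544 grey genes run along the line, while most of the 190 red genes lie left of it with hepatectomy changes near 0.

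Genes of the pericentral hepatocyte, the cell that makes glutamine and metabolises many drugs, were prominent among the lower differences. Of 17 measured pericentral genes, 6 had a lower difference and none a higher one; 10 fell and 1 rose after CCl4, while 2 fell and 1 rose after hepatectomy. Their median log2 change was -1.39 after CCl4 and -0.28 after hepatectomy. Of 26 P450 and conjugating enzymes, 8 had a lower difference, and 16 fell and 1 rose after CCl4, against 2 that fell and 2 that rose after hepatectomy. With liver 34 left out of the CCl4 group, 10 of the 26 had a lower difference, and 5 fell and 5 rose after hepatectomy. In bulk tissue, fewer cells of a type and less RNA per cell cannot be told apart.

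Slc1a2, the glutamate transporter of pericentral hepatocytes (chromosome 2, 102658659 to 102790784), read 2.78, 0.406, 0 and 0.478 CPM in CCl4 livers 4, 5, 7 and 34, against 88.4 to 251 (median 151) CPM in olive oil livers. Slc1a2 at day 3 was 78.1, 76.2, 104, 97.2 and 78.6 CPM, against 128, 119.6, 131, 128 and 141 CPM at day 0. No CCl4 liver came near the lowest olive oil liver, and the day 3 livers also lay below every day 0 liver, by far less. The log2 change was -7.59 ± 0.51 (SE) after CCl4 and -0.57 ± 0.31 after hepatectomy, of which only the first was called, and the difference was -7.02 ± 0.59 with an adjusted p of 4.99e-07 (edgeR). Cyp2a5, a coumarin-hydroxylating P450 (chromosome 7, 26835305 to 26843548), read 1.16, 4.88, 13.7 and 3.83 CPM in the CCl4 livers, against 163 to 659.7 (median 363) CPM after olive oil. Cyp2a5 at day 3 was 77.6, 177, 128, 101 and 204 CPM, against 112, 74.7, 137, 102 and 118 CPM at day 0, and these groups overlapped. The difference was -6.33 ± 0.66 (adjusted p = 1.09e-05, edgeR). Cyp2a5 control means were 3.54-fold apart between the tables, and reads of the Cyp2a, Cyp2c and Cyp3a genes may be shared with near-identical relatives, so the values of single members are uncertain.

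Cyp2e1, the P450 that activates CCl4, fell after both challenges, and further after the toxin. Its levels were 517, 761, 426 and 865 CPM in CCl4 livers and 3465 to 9244 (median 6649) CPM in olive oil livers. Cyp2e1 at day 3 was 1674, 2103, 3090, 2512 and 2241 CPM, against 5093, 6025, 6716, 4630 and 5775 CPM at day 0. Neither pair of groups overlapped, the log2 changes were -3.31 ± 0.31 after CCl4 and -1.28 ± 0.26 after hepatectomy, and the difference of -2.02 ± 0.38 was called (adjusted p = 0.00627, edgeR). Glul, which makes glutamine in the cells next to the central vein, read 73.1, 48.8, 57.6 and 177 CPM after CCl4, against 462 to 1073 (median 928) CPM after olive oil. Glul at day 3 was 407, 468, 696, 491 and 461 CPM, against 1059, 809, 1049, 803 and 952 CPM at day 0. Both challenges left every Glul value below its controls, but the hepatectomy change of -0.89 ± 0.30 missed the threshold (adjusted p = 0.0785, edgeR) while the CCl4 change was -3.19 ± 0.35, and the difference was -2.30 ± 0.44 (adjusted p = 0.00714). With only the D505 olive oil livers as controls, the Glul difference was -1.90 (adjusted p = 0.047).

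Other drug-metabolising and hepatocyte genes of the toxin class fell as well. Cyp2c38 had a CCl4 change of -6.19 ± 0.59 log2 and a hepatectomy change of 1.18 ± 0.36, which was not called, and Cyp2c29 had -4.70 ± 0.58 and 0.18 ± 0.45. Cyp3a25 fell by 1.72 ± 0.17 after CCl4 and differed by -1.75 ± 0.23 between the responses (adjusted p = 2.46e-04, edgeR). Cyp3a11, a main drug-inducible P450, was uneven after CCl4: it read 148, 1956, 1741 and 93.7 CPM, against 1870 to 4980 (median 3140) CPM after olive oil, so that livers 4 and 34 were low, liver 7 was just below the control range and liver 5 was inside it. Cyp3a11 at day 3 was 4894, 5152, 6225, 5722 and 7981 CPM, all above the 2265, 1905, 2107, 2220 and 2660 CPM at day 0, although that change was not called. Its difference of -3.21 ± 0.80 (adjusted p = 0.0381) was called in 6 of 20 fits that left out 1 liver. Fitm1, an endoplasmic reticulum protein of lipid droplet formation, read 0.231, 0.677, 0.532 and 0.478 CPM after CCl4, against 8.89 to 22.6 (median 14.01) CPM after olive oil, with a difference of -4.46 ± 0.47 (adjusted p = 1.30e-05, edgeR). Car1, a carbonic anhydrase, had no count in any of the 4 CCl4 livers, against 2.52 to 13.6 (median 6.65) CPM after olive oil, and was at least 10.7-fold lower, taking the limit of 3 counts in the shallowest CCl4 library (0.717 CPM). Car1 was present at 1.51, 4.96, 3.15, 0.772 and 0.378 CPM at day 3, against 6.32, 7.47, 2.69, 5.15 and 4.99 CPM at day 0. The summed level of 9 red-cell genes was also lower after CCl4, at 53.7 to 104.5 CPM against 181 to 275 after olive oil. Their sums overlapped between day 3 (255 to 659 CPM) and day 0 (336 to 739.8 CPM). Of the 9, 1 was at 0 in every day 3 liver and none was at 0 throughout another group. Of 5 red-cell genes tested, 2 fell after CCl4 and 1 after hepatectomy. A lower difference was called for 1 of the 5, against 1.49% of all tested genes, and for none against the D505 olive oil livers alone. The part of red-cell genes in the Car1 result was not tested.

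**Figure D2:**
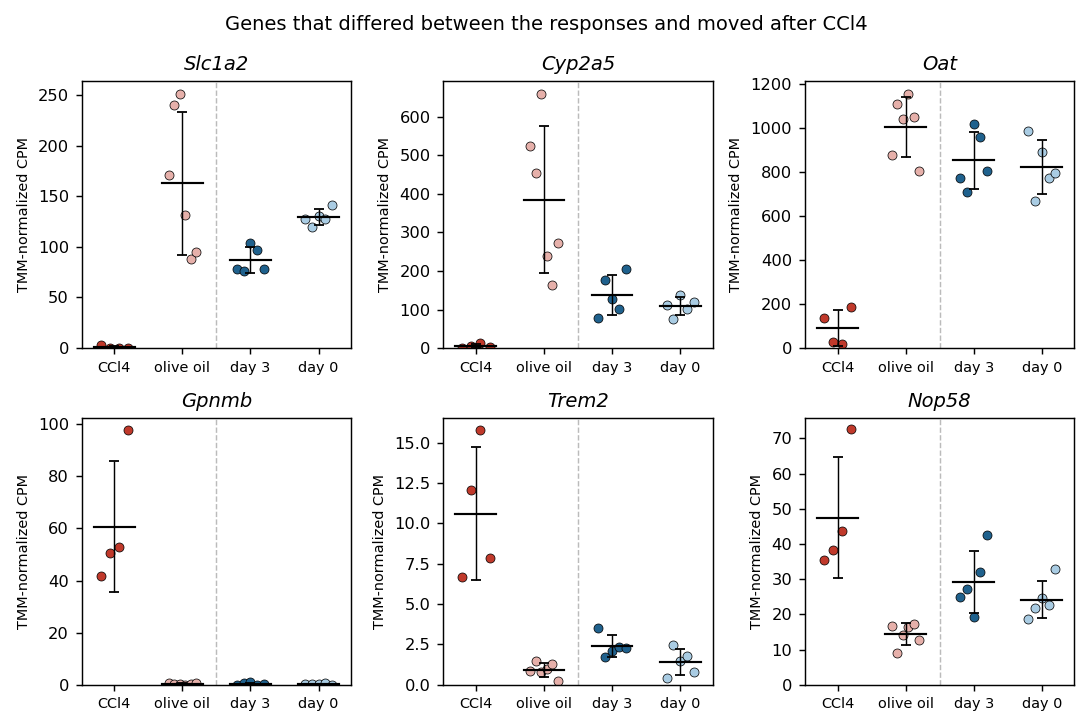
TMM-normalized CPM (vertical) of 6 genes in each liver of the 4 groups, with the mean (line) and SD (bar); the dashed line separates the 2 tables, across which levels are not compared. Slc1a2, Cyp2a5 and Oat are low and Gpnmb, Trem2 and Nop58 are high in every CCl4 liver relative to olive oil. Day 3 and day 0 livers overlap except for Slc1a2, whose day 3 livers all lie below day 0, by far less than after CCl4. Genes named from the toxin class by the size of their difference had to have CCl4 and olive oil livers apart.

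Genes outside the pericentral zone fell as well. Of 18 periportal genes, 2 had a lower difference, namely Uox, the urate oxidase, and Cyp2f2, a P450 of periportal hepatocytes. The counts were 6 lower and 1 higher without CCl4 liver 34. Uox read 756, 668, 791 and 258 CPM after CCl4, against 2230 to 2506 (median 2353) CPM after olive oil. Uox at day 3 was 2105, 2144, 1894, 1873 and 1975 CPM, against 1698, 1535, 2095, 2024 and 1885 CPM at day 0. All 4 CCl4 values lay below the narrow olive oil range and the hepatectomy groups overlapped, with a difference of -2.04 ± 0.30 (adjusted p = 7.74e-04, edgeR). Cyp2f2 differed by -2.05 ± 0.51 (adjusted p = 0.0375), a call kept in 5 of 20 fits without 1 liver.

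Enzymes that break down amino acids held the most lower differences by count among the 45 lists, in the largest list. This list of 54 was assembled after the gene values were seen, so its count is a description. Of the 54, 19 had a lower difference and none a higher one, 43 fell after CCl4 and 6 fell after hepatectomy. Lower differences were called for 6 of 17 pericentral genes, 8 of 26 P450 and conjugating enzymes and 1.49% of all tested genes. The pericentral and P450 lists both hold Cyp2e1, so their counts are not independent. The median log2 change was -1.09 after CCl4 and -0.25 after hepatectomy, against 0.05 and -0.000122 over all tested genes. Without CCl4 liver 34 the count of lower differences was 29, and 17 fell after hepatectomy. The count of lower differences was 9 against the D504 olive oil livers alone and 10 against the D505 livers alone. Oat, ornithine aminotransferase, a pericentral enzyme, read 137, 28.2, 18.8 and 185 CPM after CCl4, against 804 to 1157 (median 1046) CPM after olive oil. Oat at day 3 was 772, 710.3, 1021, 958 and 806 CPM, against 989, 669, 894, 772 and 796 CPM at day 0. Thus the CCl4 livers fell far below their controls while the hepatectomy groups overlapped, and the difference was -3.50 ± 0.58 (adjusted p = 0.00294, edgeR). Hgd, homogentisate dioxygenase of tyrosine breakdown, differed by -1.24 ± 0.23, with a CCl4 change of -1.27 ± 0.17 and a hepatectomy change of -0.03 ± 0.16. Cth, which makes cysteine from cystathionine, had a CCl4 change of -1.38 ± 0.27 and a hepatectomy change of 0.80 ± 0.26 that was not called, and differed by -2.17 ± 0.37 (adjusted p = 0.00377, edgeR). Abat, the GABA transaminase, fell after both, by 1.42 ± 0.12 after CCl4 and by 0.38 ± 0.11 after hepatectomy, and the changes were unequal (adjusted p = 0.00126).

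Lipid and bile acid enzymes followed in smaller numbers. Of 15 fatty acid synthesis genes, 3 had a lower difference, 9 fell after CCl4 and none changed after hepatectomy (1 rose without CCl4 liver 34). Mlxipl, the carbohydrate-responsive regulator of these genes, read 93.7, 157, 215 and 129 CPM after CCl4, against 389 to 629 (median 524) CPM after olive oil, and differed by -1.39 ± 0.25 (adjusted p = 0.00569, edgeR). Thrsp and Fasn, the fatty acid synthase, differed by -3.53 ± 0.88 and -2.38 ± 0.59 (adjusted p = 0.0383 and 0.0395), calls kept in 9 and 8 of 20 fits without 1 liver. The index of the olive oil livers moved with this group. Scd1, the stearoyl-CoA desaturase, read 803, 627, 426, 14370, 13080 and 16950 CPM in olive oil livers 24, 26, 27, 28, 29 and 30, so that the D504 livers were all far below the D505 livers, and 17.4, 629, 1457 and 111 CPM in the CCl4 livers. The Scd1 difference was -1.47 against the D504 controls (adjusted p = 0.511) and -6.05 against the D505 controls (adjusted p = 0.0117), and the Fasn difference was -1.75 (adjusted p = 0.127) and -2.81 (adjusted p = 0.0174) by edgeR. Among 21 bile acid genes, 2 had a lower difference: Akr1d1, a reductase of bile acid synthesis, by -2.30 ± 0.50, and Slc27a5, which activates bile acids for conjugation, by -0.95 ± 0.17.

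Of 19 measured male-biased genes that depend on growth hormone, 15 fell after CCl4 and 10 after hepatectomy, 10 of them after both, and the median log2 change was -2.16 and -1.54. The exceptions with a called difference were Cyp4a12b, a fatty acid hydroxylase, and Elovl3, a fatty acid elongase. Cyp4a12b read 0.694, 1.49, 0.354 and 0.239 CPM after CCl4, against 43.6 to 76.5 (median 49.1) CPM after olive oil. Cyp4a12b at day 3 was 23.4, 25.99, 30.5, 23.1 and 33.6 CPM, against 77.7, 55.4, 48.03, 52.3 and 56.8 CPM at day 0. Neither pair of groups overlapped and the CCl4 change of -6.12 ± 0.32 was much the larger one, with a difference of -5.03 ± 0.38 and the smallest adjusted p of all tested genes (1.74e-07, edgeR). Its close relative Cyp4a12a had a difference of -3.18 ± 0.87 that was not called (adjusted p = 0.061). Elovl3 differed by -3.39 ± 0.62 (adjusted p = 0.00574).

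Mitochondrial genes fell after CCl4. Of 12 mitochondrially encoded genes, 11 fell after CCl4 and none changed after hepatectomy, at medians of -0.695 and -0.00805 log2, and mt-Co1, a subunit of cytochrome oxidase, had a called difference, -0.82 ± 0.21 (adjusted p = 0.0453, edgeR). Its control means were 2.16-fold apart between the tables. Of 22 nuclear-encoded respiratory chain genes, 18 fell after CCl4 and none changed after hepatectomy, and Sdhb of complex II had a called difference, -0.66 ± 0.17 (adjusted p = 0.0434). Both calls were kept in 4 of 20 fits without 1 liver, and neither was called against the D504 or the D505 olive oil livers alone. A lower difference was called for 3 of the 12 and 2 of the 22 genes without CCl4 liver 34.

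**Figure D3:**
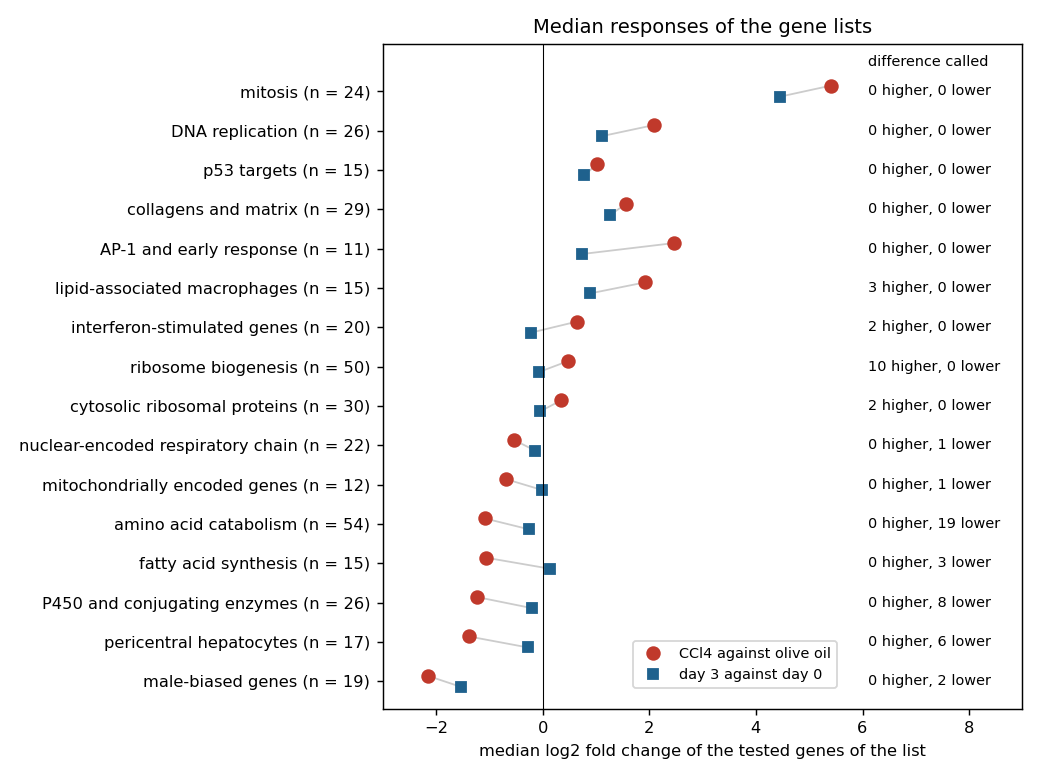
Median log2 fold change (horizontal) of the tested genes of 16 lists after CCl4 (circles) and after hepatectomy (squares), with the number of genes whose difference of responses was called higher or lower at the right. Mitosis lies far right for both challenges with no called difference, while amino acid catabolism has 19 lower calls and ribosome biogenesis 10 higher calls.

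Macrophage genes were among those that rose after CCl4 and differed from hepatectomy. Of 15 measured genes of monocyte-derived and lipid-associated macrophages, cells that take up debris and lipid, 3 had a higher difference (Gpnmb, Cd63 and Trem2), 11 rose after CCl4 and 3 rose after hepatectomy, at medians of 1.92 and 0.89 log2. Gpnmb, a membrane glycoprotein of lipid-laden macrophages (chromosome 6, 49036546 to 49070929), read 41.6, 50.5, 53 and 97.5 CPM after CCl4, against 0 to 0.755 (median 0.311) CPM after olive oil. Gpnmb at day 3 was 0, 0.584, 1.05, 0 and 0.378 CPM, against 0.147, 0.277, 0.298, 0.515 and 0 CPM at day 0, values at or near the limit set by a count of 0. Every CCl4 liver was thus far above every other liver of its experiment and no change was detectable at this depth after hepatectomy; the CCl4 change was 7.29 ± 0.42 and the difference had an adjusted p of 0.00714 (edgeR). Trem2, a lipid receptor of macrophages, read 6.71, 12.1, 15.8 and 7.89 CPM after CCl4, against 0.252 to 1.45 (median 0.900) CPM after olive oil. Trem2 at day 3 was 3.53, 1.75, 2.10, 2.31 and 2.27 CPM, against 0.441, 2.49, 1.49, 1.80 and 0.767 CPM at day 0, which overlapped, and the difference was 2.65 ± 0.62 (adjusted p = 0.0287).

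Cd63, a tetraspanin of late endosomes, had a CCl4 change of 4.29 ± 0.42 and a difference of 2.93 ± 0.68, and C3ar1, the receptor for complement fragment C3a, had 1.91 ± 0.39 and 2.67 ± 0.62 (adjusted p = 0.0287 for both, edgeR). Ctss, the lysosomal protease cathepsin S of antigen-presenting cells, differed by 1.59 ± 0.36 (adjusted p = 0.0257). The calls of Cd63 and C3ar1 were kept in 15 of 20 fits without 1 liver, those of Trem2 and Ctss in 16 and that of Gpnmb in 19. The summed level of all 19 genes of the macrophage list was 648 to 968 CPM after CCl4, against 124 to 284 after olive oil, and 398 to 533 CPM at day 3, against 213 to 326 at day 0, with no gene at 0 in a whole group. The 13 resident Kupffer cell genes gave no called difference, where 1.97% of all tested genes had one. Of these 13, 1 rose and 3 fell after CCl4, and 1 rose and 1 fell after hepatectomy. Their sums were 502 to 860 CPM after CCl4, against 656 to 1237 after olive oil, and 700 to 899 at day 3, against 938 to 1050 at day 0. Against the D504 olive oil livers alone, Gpnmb was the only macrophage list gene with a called difference (adjusted p = 0.0129, edgeR). Against the D505 livers alone Gpnmb kept its call (adjusted p = 0.0233), and Atp6v0d2, a subunit of the proton pump of lysosomes, had a lower difference of -3.48 (adjusted p = 0.00291).

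Interferon-stimulated genes showed 2 higher differences of 20, with 8 risen after CCl4, none risen after hepatectomy and 1 fallen. Leaving out CCl4 liver 34, 3 had a higher difference and 4 fell after hepatectomy. Irf7, the regulator of type I interferon genes, read 134, 43.9, 94.5 and 42.3 CPM after CCl4, against 28.7 to 59.3 (median 39.1) CPM after olive oil. Irf7 at day 3 was 27.98, 31.2, 30.1, 31.4 and 30.6 CPM, below the 57.2, 40.7, 56.1, 72.4 and 47.9 CPM at day 0. CCl4 livers 4 and 7 were high, livers 5 and 34 were within the olive oil range, and the difference of 1.82 ± 0.38 (adjusted p = 0.0142, edgeR) combined a CCl4 rise of 0.96 ± 0.26 with a hepatectomy change of -0.86 ± 0.27 that missed the threshold. Isg15, a ubiquitin-like interferon product, differed by 1.74 ± 0.45 (adjusted p = 0.0474), a call kept in 2 of 20 fits without 1 liver. The antioxidant gene Srxn1, sulfiredoxin, read 101, 289, 652 and 142 CPM after CCl4, against 42.4 to 62.9 (median 49.5) CPM after olive oil, with a difference of 2.03 ± 0.47 (adjusted p = 0.0287); it was 1.29 without CCl4 liver 7 and was called in 15 of 20 fits without 1 liver. Of 19 NRF2 and glutathione genes Srxn1 alone had a called difference, and without CCl4 liver 34, 3 of 20 had a higher one. Nin, ninein of the centrosome, differed by 1.94 ± 0.47 (adjusted p = 0.035), a call kept in 9 of 20 fits without 1 liver.

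Genes that build ribosomes gave 10 of the 56 higher differences. Of 50 ribosome biogenesis genes, another list assembled after the values were seen, these 10 had a higher difference and none a lower one, 27 rose and 1 fell after CCl4, and 1 rose and 1 fell after hepatectomy. When CCl4 liver 34 was left out, 8 had a higher difference and 16 rose after CCl4, and 3 fell after hepatectomy. The median log2 change was 0.48 after CCl4 and -0.07 after hepatectomy. Nop58, a core protein of the box C/D particles that modify ribosomal RNA, read 35.4, 38.2, 43.6 and 72.7 CPM after CCl4, against 9.16 to 17.2 (median 15.4) CPM after olive oil. Nop58 at day 3 was 24.9, 27.2, 19.3, 32.2 and 42.7 CPM, against 18.8, 21.9, 24.8, 22.7 and 32.98 CPM at day 0. All CCl4 livers were above all olive oil livers, the hepatectomy groups overlapped, and the difference was 1.43 ± 0.32 (adjusted p = 0.0247, edgeR). Its partner Nop56 differed by 1.499 ± 0.33, Imp4 of the small-subunit processome by 0.84 ± 0.18, Mrto4 of the large subunit by 1.01 ± 0.22, Tsr1 of the small subunit by 1.10 ± 0.24 and Mybbp1a of the nucleolus by 1.19 ± 0.29, with adjusted p from 0.0171 to 0.035 over the 5 (edgeR). The Mybbp1a difference was 0.73 without CCl4 liver 34, and its call was kept in 7 of 20 fits without 1 liver. Against the D504 or the D505 olive oil livers alone, 3 of the 50 had a higher difference in each fit. Of 30 ribosomal proteins, 15 rose after CCl4 (8 without CCl4 liver 34) and none changed after hepatectomy (1 rose without that liver), and Rps20 of the small subunit had a higher difference, 0.73 ± 0.18, called in 13 of 20 fits without 1 liver. Its control means were 4.09-fold apart between the tables, so the 2 tables may not count the same reads for it.

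The E-box CACGTG, the sequence that MYC and related factors bind, was searched on both strands in RefSeq promoters (GRCm38.p6, 250 bases before to 50 after each start; the word is its own reverse complement). It was found in 4 of the 9 matched genes among the 10 with a called difference (44.4%), in 8 of 45 matched genes of the whole list (17.8%) and in 11.9% of the 9123 matched tested genes. A match is a description of the letters only. The windows of 2 of the 4 genes are shown because they belong to members named here and hold the E-box. They run from 100 bases before to 50 after the start, with the E-box in capitals. Imp4, also named here, has its E-box outside that window. Tsr1 lies at chr11:74897980-74898129 on the plus strand and Mybbp1a at chr11:72441227-72441376 on the plus strand.
Tsr1: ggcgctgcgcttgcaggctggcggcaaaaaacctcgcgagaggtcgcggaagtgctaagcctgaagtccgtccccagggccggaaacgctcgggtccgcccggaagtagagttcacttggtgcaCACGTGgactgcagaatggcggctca
Mybbp1a: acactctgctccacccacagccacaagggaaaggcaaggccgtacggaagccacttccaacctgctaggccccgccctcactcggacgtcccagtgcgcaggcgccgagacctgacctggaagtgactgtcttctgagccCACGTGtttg
Myc itself had a CCl4 change of 2.47 ± 0.49 and a hepatectomy change of 0.52 ± 0.50, and its difference of 1.95 ± 0.70 was not called (adjusted p = 0.148, edgeR).

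The resection class was small, and 14 of its 17 genes met the conditions for naming. Those conditions include day 3 and day 0 livers that do not overlap, so the separation of these groups was set by the choice of genes. Among the genes that fell at day 3, Hamp encodes hepcidin, the liver hormone that limits iron uptake. Hamp read 1394, 419, 362 and 1887 CPM in CCl4 livers, against 406, 194, 421, 801, 1292 and 951 CPM in olive oil livers 24, 26, 27, 28, 29 and 30. Hamp at day 3 was 83.4, 116, 120.2, 26.8 and 84.2 CPM, against 342, 358, 325, 420.5 and 329 CPM at day 0. Every day 3 liver lay below every day 0 liver, whereas the toxin groups overlapped and the D505 olive oil livers were above the D504 livers. The hepatectomy change was -2.05 ± 0.49 and the CCl4 change 0.58 ± 0.47, and the difference of 2.63 ± 0.67 passed (adjusted p = 0.0451, edgeR). Without CCl4 liver 34 the adjusted p was 0.0641, against the D505 olive oil livers alone the difference was 2.04 (adjusted p = 0.131) and against the D504 livers 3.62 (adjusted p = 0.0103); 4 of 20 fits without 1 liver kept the call. Of the 28 tested genes of the TGF-beta, activin and BMP pathway, to which hepcidin belongs as a BMP target, Hamp was the only one with a called difference.

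Ifi47, an interferon-gamma-inducible GTPase, read 35.6, 30.3, 22.9 and 17.4 CPM after CCl4, against 17.1 to 34.5 (median 22.9) CPM after olive oil. Ifi47 at day 3 was 22.9, 30.4, 26.99, 23.9 and 16.2 CPM, against 48.9, 56.2, 48.3, 48.96 and 48.3 CPM at day 0. Only the hepatectomy groups were apart, with a change of -1.05 ± 0.20 and a difference of 1.19 ± 0.28 (adjusted p = 0.0303, edgeR) that was called in 11 of 20 fits without 1 liver, and the control means were 2.08-fold higher at day 0 than after olive oil. Alkbh3, a demethylase that repairs alkylated DNA, read 12.1, 11.4, 10.5, 12.3 and 13.98 CPM at day 3, against 19.4, 18.8, 19.1, 20.1 and 18.03 CPM at day 0. Alkbh3 read 20.8, 17.9, 18.1 and 26.1 CPM after CCl4, against 16.4 to 20.8 (median 17.8) CPM after olive oil. The day 3 livers were all lower than day 0, the toxin groups overlapped, and the difference of 0.85 ± 0.19 (adjusted p = 0.0214) was called in all 20 fits without 1 liver. Smaller falls at day 3 were those of Borcs6, a subunit of the complex that positions lysosomes (-0.99 ± 0.24), Wtap of the RNA adenosine methyltransferase complex (-0.55 ± 0.15) and Psmc1, an ATPase of the proteasome (-0.38 ± 0.11). Their differences were 1.34 ± 0.33, 0.88 ± 0.21 and 0.61 ± 0.15, called in 5, 14 and 6 of 20 fits without 1 liver. The 3 further genes of the class that fell, Cpne2, Slc25a30 and Gbp2b, are named after their values were seen and had differences of 1.32 ± 0.31, 2.95 ± 0.63 and 3.75 ± 0.98.

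Among the genes that rose at day 3, Tm6sf2, a protein needed to load lipid onto secreted lipoprotein, read 62.01, 51.99, 51.5, 56.6 and 38.9 CPM, against 29.2, 20.2, 23.6, 22.9 and 17.6 CPM at day 0. Tm6sf2 read 39.6, 26.3, 30.5 and 24.4 CPM after CCl4, against 25.3 to 47.3 (median 33.5) CPM after olive oil. Its day 3 livers were all above day 0 and the toxin groups overlapped, with a difference of -1.40 ± 0.27 (adjusted p = 0.00749, edgeR) that was called in all 20 fits without 1 liver and against either set of olive oil livers. Crat, carnitine acetyltransferase, read 85.95, 58.4, 72.2, 86.7 and 77.4 CPM at day 3, against 44.96, 34.6, 24.2, 28.6 and 28 CPM at day 0. Crat read 62.9, 38.9, 42.7 and 34.7 CPM after CCl4, against 31.01 to 69.9 (median 41.6) CPM after olive oil. Again only the hepatectomy groups were apart, but the difference of -1.25 ± 0.31 (adjusted p = 0.0365), called in 8 of 20 fits without 1 liver, was -0.85 against the D504 olive oil livers (adjusted p = 0.133) and -1.57 against the D505 livers (adjusted p = 0.0117). Ppl, periplakin, a linker of keratin filaments to the cell border, read 56.2, 43.5, 61.7, 69.2 and 57.8 CPM at day 3, against 7.93, 15.5, 9.55, 14.9 and 11.9 CPM at day 0. Ppl read 28.4, 46.99, 59.4 and 16.3 CPM after CCl4, against 18.6 to 31.03 (median 26.3) CPM after olive oil. Its hepatectomy change of 2.28 ± 0.27 exceeded the CCl4 change of 0.58 ± 0.26, which was not called, and the difference was -1.70 ± 0.38 (adjusted p = 0.0214). The Ppl control means were 2.12-fold apart between the tables.

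**Figure D4:**
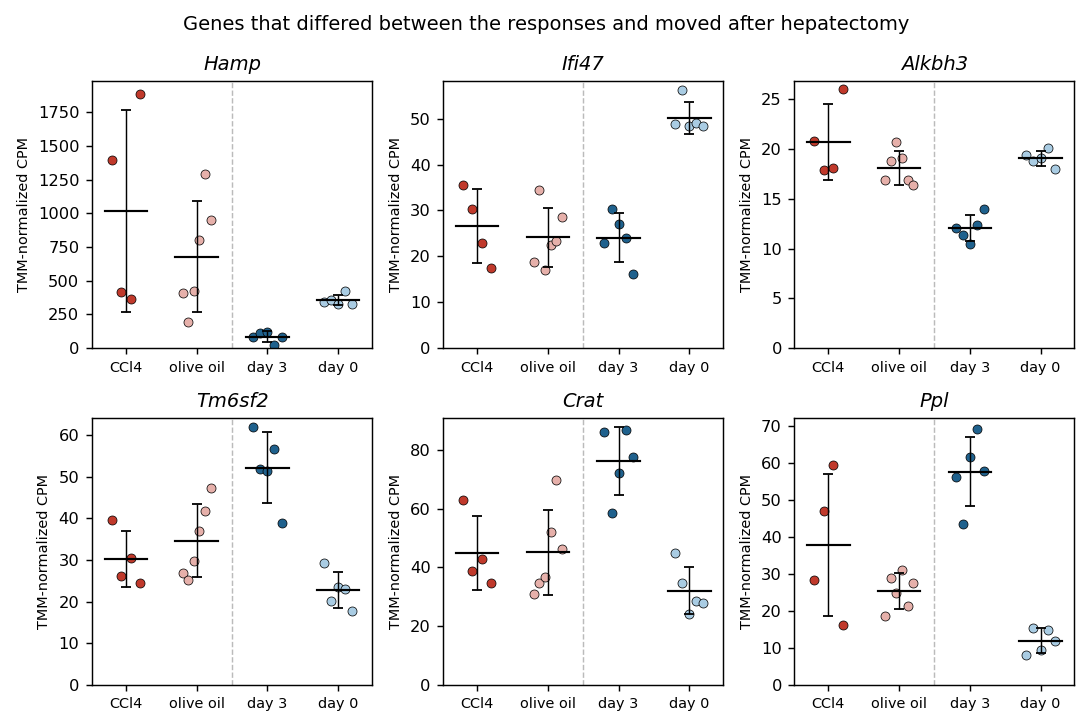
TMM-normalized CPM (vertical) of 6 genes of the resection class in each liver of the 4 groups, with the mean (line) and SD (bar); the dashed line separates the 2 tables. Day 3 livers lie apart from day 0 for all 6 genes, which was a condition for naming them, while CCl4 and olive oil livers overlap.

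For 2 further risers, H3f3a and Cyp2a22, the control levels of the 2 tables were far apart. H3f3a, a gene of histone H3.3 with many processed copies, read 6.81, 8.18, 4.91, 5.66 and 7.55 CPM at day 3, against 3.38, 3.88, 2.39, 2.32 and 3.45 CPM at day 0. H3f3a read 62.7, 66.8, 63.5 and 53.5 CPM after CCl4, against 61.3 to 69.2 (median 67.1) CPM after olive oil, a control mean 21.4-fold higher than at day 0. Within the tables its hepatectomy change was 1.09 ± 0.17 and its CCl4 change -0.10 ± 0.12 (difference adjusted p = 0.00425, edgeR), but what share of the gene's reads each table counts is not known. Cyp2a22 had 31 counts over the day 3 livers and 1 count over the day 0 livers, a ratio of 37.4 (95% interval 6.24 to 1530, counting error only), and read 12.3, 5.55, 7.80 and 3.35 CPM after CCl4, against 5.08 to 9.08 (median 6.53) CPM after olive oil, a control mean 134-fold higher than at day 0. H2-Q1, a class I histocompatibility gene with close relatives, rose by 2.68 ± 0.57 log2 at day 3 and had a difference of -3.69 ± 0.82 (adjusted p = 0.0212), which was not called against the D504 olive oil livers (adjusted p = 0.127). Stom and Inppl1, named after their values were seen, complete the class with differences of -0.99 ± 0.25 and -0.82 ± 0.19. Of the 17 genes, 6 had control means over 2-fold apart between the tables, and when p-values were adjusted over the remaining genes alone the class held 11.

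Both challenges changed 3 genes in opposite directions. Gstt3, a theta-class glutathione transferase, read 18.7, 11.5, 12.2 and 8.13 CPM after CCl4, against 25.7 to 57.9 (median 35.4) CPM after olive oil. Gstt3 at day 3 was 38.3, 41.5, 51.5, 47.6 and 75.5 CPM, against 21.01, 16.1, 22.1, 22.4 and 28.4 CPM at day 0. It fell in all CCl4 livers and rose in all day 3 livers with no overlap in either experiment, and the difference was -2.81 ± 0.34 (adjusted p = 1.11e-04, edgeR). Tcp1, a subunit of the cytosolic chaperonin, went the other way: it read 120.3, 136, 141 and 178 CPM after CCl4, against 90.0 to 115 (median 106) CPM after olive oil. Tcp1 at day 3 was 79.9, 71.3, 90.1, 93.9 and 94.4 CPM, against 112, 115, 106, 119 and 134 CPM at day 0, and the difference was 0.91 ± 0.17 (adjusted p = 0.0072). U2af2, a splicing factor, rose by 0.29 ± 0.09 after CCl4 and fell by 0.32 ± 0.10 at day 3, small changes with no overlap of the groups (difference 0.61 ± 0.13, adjusted p = 0.0211). All 3 calls were kept in each of the 20 fits without 1 liver.

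The cell cycle was common to both challenges. All 24 mitosis genes rose after CCl4 and all 24 rose after hepatectomy, at medians of 5.40 and 4.45 log2, and none had a called difference. With 1.97% of all tested genes called, a list of this size would hold few or none at that share. Cdk1, the kinase that drives entry into mitosis, read 44.4, 88.97, 46.8 and 1.67 CPM after CCl4, against 0.242 to 3.32 (median 1.98) CPM after olive oil. Cdk1 at day 3 was 19.2, 27.2, 37.5, 44.5 and 34.8 CPM, against 1.76, 0.277, 2.09, 0.515 and 0.384 CPM at day 0. CCl4 livers 4, 5 and 7 and all day 3 livers were far above their controls, but CCl4 liver 34 was within the olive oil range, and the difference was -0.28 ± 1.00 (adjusted p = 0.921, edgeR). Aurka, a kinase of the mitotic spindle, read 17.8, 52.1, 40.1 and 2.39 CPM after CCl4, against 0 to 2.33 (median 0.264) CPM after olive oil, and differed by 2.25 ± 1.06 (adjusted p = 0.268). With an SE near 1 log2 unit, even the Aurka difference of 2.25 log2 was not called, so neither gene can show that the responses were of equal size. Without CCl4 liver 34 all 24 genes still rose after both challenges and none had a called difference, at a median of 1.29 against 0.90 with it. The mitosis genes Ccna2 and Top2a each had a higher difference called in 1 of 33 alternative fits, and Aurka, Cdc20 and Cdk1 in none. As a mean over the 24 genes, the livers stood above their own controls by 3.79, 5.53, 4.95 and 0.53 log2 for CCl4 livers 4, 5, 7 and 34, and by 3.14, 3.44, 4.04, 4.32 and 3.99 for day 3 livers 12 to 16. The summed level of the 24 was 43.5 CPM in CCl4 liver 34 and reached 1549 CPM in liver 5, against 13.8 to 27.9 CPM after olive oil.

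The cell cycle homology region, with core TTTGAA or TTCGAA, is a promoter element of genes of mitosis through which the DREAM and MuvB complexes act. Either word on either strand was found in the RefSeq promoters of 16 of 20 matched mitosis genes (80.0%) and of 16.4% of the 9123 matched tested genes. The promoters of 3 mitotic kinases and regulators that the 2 challenges shared are shown, 100 bases before to 50 after the start on the gene's strand (GRCm38.p6), with each word in capitals. Aurka lies at chr2:172370521-172370670, Cdc20, the activator of the anaphase-promoting complex, at chr4:118437294-118437443 and Cdk1 at chr10:69352863-69353012, all on the minus strand.
Aurka: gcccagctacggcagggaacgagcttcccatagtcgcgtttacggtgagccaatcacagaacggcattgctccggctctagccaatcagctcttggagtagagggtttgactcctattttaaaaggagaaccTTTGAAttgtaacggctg
Cdc20: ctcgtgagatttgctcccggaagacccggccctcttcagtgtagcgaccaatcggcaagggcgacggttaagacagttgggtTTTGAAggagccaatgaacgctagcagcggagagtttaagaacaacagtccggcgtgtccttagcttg
Cdk1: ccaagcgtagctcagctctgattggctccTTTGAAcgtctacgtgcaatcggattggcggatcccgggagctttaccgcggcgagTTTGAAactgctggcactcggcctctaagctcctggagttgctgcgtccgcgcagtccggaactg
These matches describe the letters in the windows and not sites bound in these livers.

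The comparison of DNA replication genes depended on CCl4 liver 34. Of 26 measured, 22 rose and 1 fell after CCl4 and 4 rose after hepatectomy, at medians of 2.09 and 1.12 log2, and none had a called difference. Without CCl4 liver 34, 11 had a higher difference, 24 rose after CCl4 and 15 after hepatectomy. Mcm6, a subunit of the replicative helicase, read 99.01, 100.5, 74.6 and 8.13 CPM after CCl4, against 2.42 to 9.16 (median 4.71) CPM after olive oil. Mcm6 at day 3 was 26.2, 27.8, 35.8, 25.7 and 32.1 CPM, against 9.26, 7.20, 6.56, 18.6 and 11.1 CPM at day 0. Livers 4, 5 and 7 were above all others of their experiment and liver 34 was not; the difference was 2.30 ± 0.65 (adjusted p = 0.0684) with liver 34 and 2.67 (adjusted p = 4.81e-04) without it by edgeR. The means over the 26 genes were 2.25, 2.55, 2.13 and -0.34 log2 for CCl4 livers 4, 5, 7 and 34, and 0.87 to 1.21 for the day 3 livers.

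**Figure D5:**
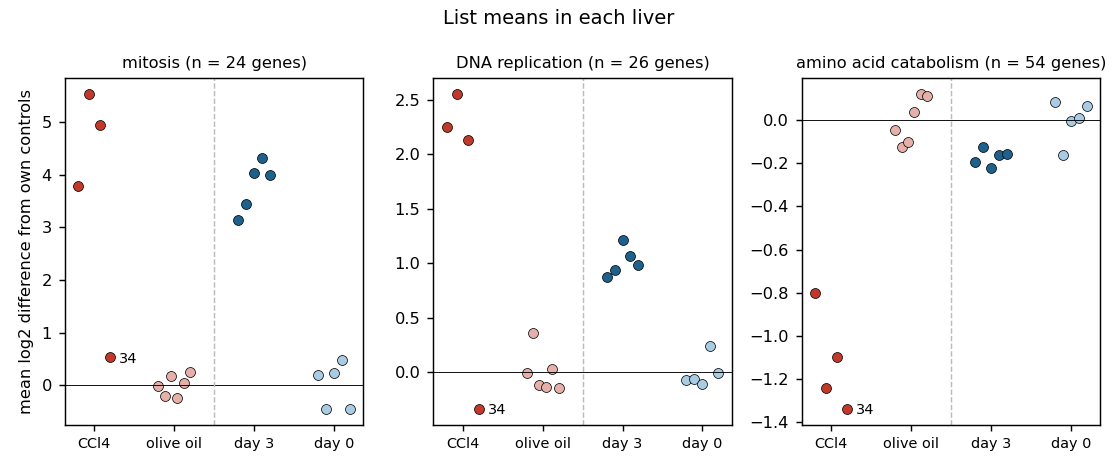
Mean log2 difference from the liver's own control group (vertical) over the genes of 3 lists, one point per liver, with CCl4 liver 34 marked. Liver 34 lies near the olive oil livers for mitosis (0.53) and DNA replication (-0.34) and with the other CCl4 livers for amino acid catabolism.

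Matrix, p53 and immediate-early genes gave no called difference either. Over all tested genes 1.97% had one, a share at which lists of this size would hold few or none. Of 29 collagen and matrix genes, 20 rose after CCl4 and 14 after hepatectomy, 13 of them after both, at medians of 1.57 and 1.27 log2. Col1a1, a chain of type I collagen, read 76.1, 173, 149 and 62.4 CPM after CCl4, against 7.26 to 16.1 (median 10.7) CPM after olive oil. Col1a1 at day 3 was 104, 28.6, 143, 39.9 and 18.9 CPM, against 6.91, 15.8, 12.5, 9.53 and 5.37 CPM at day 0. Both challenges raised it above every control, and its difference of 0.63 ± 0.65 (adjusted p = 0.659, edgeR) was within the error. Of 15 p53 targets, 11 rose after CCl4 and 6 after hepatectomy, at medians of 1.02 and 0.77 log2. Cdkn1a, which encodes the cell cycle inhibitor p21, rose by 3.73 ± 0.47 after CCl4 and by 3.11 ± 0.52 after hepatectomy. Its difference of 0.62 ± 0.71 turned on the olive oil livers: it was 2.85 against those of index D504 (adjusted p = 0.0266) and -0.18 against those of D505 (adjusted p = 0.905). Of 11 AP-1 and early growth response genes, 9 rose after CCl4 and 1 after hepatectomy, at medians of 2.47 and 0.74 log2. Without liver 34 these counts were 6 and 4, and the median of the difference was 0.24 in place of 1.43. Fos, a subunit of AP-1, read 11.8, 10.02, 3.19 and 19.6 CPM after CCl4, against 0.181 to 1.94 (median 1.04) CPM after olive oil, and its difference of 2.57 ± 0.89 was not called (adjusted p = 0.134).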

How the data were processed

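The authors deposited raw read counts per gene in 2 tables, one for the CCl4 and one for the hepatectomy experiment. Per the submitters' processing notes, TopHat2 2.0.11 and HTSeq were used with build GRCm38; the annotation release and strand setting are not given in the sources used here. The 20 wild-type libraries were joined on the gene IDs shared by both tables and fitted together (R 4.3.3, edgeR 4.0.16, filterByExpr, TMM, quasi-likelihood F-test, two-sided, Benjamini-Hochberg adjusted over 11568 genes, threshold 0.05), with 1 term per group. The SE was taken as the absolute log2 change over the square root of F. Symbols were matched for 11564 tested genes, and positions are GRCm38.

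The members and lists were chosen with earlier results of these data known, and the ribosome biogenesis, amino acid and interferon-gamma GTPase lists after the gene values were seen. Within each class, the 6 genes with the largest change in each direction were named among those with 5 CPM or more in a group and groups that did not overlap; from each list described, up to 4 members with the smallest p and its defining members were named, and any other gene after its values were seen. Replicate libraries differed beyond sampling noise (lowest chi-square per degree of freedom 4.98). Alternatives used DESeq2 1.42.0, limma 3.58.1, other filters, left-out livers, subsets of controls and the livers labelled knockout.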

Additional observations from a re-analysis of the deposited data

Results flagged for a closer look

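Among 368 sets of 1 gene in 1 group (92 named genes, 4 groups), 23 held a liver far from the others of its group by Dixon's test at the 95% level, where about 1 in 20, or 18.4, is the number chance gives. The values below are TMM-normalized CPM. In CCl4 livers, liver 34 stood apart for H2-Q1 (0 CPM), Rsad2, an antiviral interferon product (386 CPM), and Inhbb, a subunit of activin (51.6 CPM). Liver 5 stood apart for Cyp4a12a (31.7 CPM) and liver 4 for Cdkn1a (140 CPM). In olive oil livers, single values stood apart for Aurka in liver 27 (2.33 CPM), Cdc20 in liver 29 (1.27 CPM), Psrc1 in liver 28 (0.485 CPM), Fn1 in liver 26 (2620 CPM) and Myc in liver 30 (10.3 CPM). At day 3 these were Cyp2c38 in liver 14 (41.7 CPM), Nin in liver 15 (6.17 CPM), Cyp4a12a in liver 15 (112 CPM), Abat in liver 16 (357 CPM) and Id2 in liver 13 (122 CPM). At day 0, liver 15 stood apart for Cyp2a22 (0.258 CPM, its 1 count), Cyp4a12a (490 CPM), Isg15 (22.2 CPM) and Psrc1 (1.29 CPM), and liver 13 for Ifi47 (56.2 CPM) and Gstm2 (13.6 CPM). Elovl3 in day 0 liver 12 (734 CPM) and Ccna2 in day 0 liver 14 (4.18 CPM) complete the set.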

How the results depend on the processing

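The difference was called for 57 of the 92 named genes, 34 of them in all 20 fits without 1 liver and 13 in under 10 of the 20, and none of the 57 changed sign in a setting run for single genes. Of the genes with no called difference, Btg2, Cdk1 and Cdkn1a changed sign in some of these settings. Without 1 liver, 132 to 438 genes had a called difference (27 to 137 higher, 103 to 317 lower), 3051 to 3481 a CCl4 response and 4.55% to 12.8% of tested genes a hepatectomy response. The toxin class then held 114 to 379 genes, the resection class 7 to 30, the opposite class 1 to 16, the unequal class 5 to 93 and the shared class 399 to 930. In these and the following settings the cause of a change was not tested.

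DESeq2's Wald test called 575 differences (186 higher, 389 lower), with 466 toxin, 36 resection, 10 opposite and 48 unequal genes. Limma voom with quality weights called 470 (135 higher, 335 lower) and hepatectomy responses in 16.1% of tested genes, with 312 toxin, 28 resection, 22 opposite, 102 unequal and 1119 shared genes. Against a fold of 1.5, 32 differences were called (2 higher, 30 lower), 1158 CCl4 responses and hepatectomy responses in 1.77%, with 30 toxin, 1 resection, 0 opposite, 1 unequal and 172 shared genes. With no filter, 37 were higher, and the resection class held 10 and the unequal class 9. DESeq2 size factors (238 differences), a filter at 1 CPM (209) and robust dispersions (204) kept the count within 1.5 times.

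With mouse number as a replicate block, 93 differences were called (18 higher, 75 lower) and hepatectomy responses in 4.36% (6.63% without the block), with 82 toxin, 4 resection, 1 opposite and 6 unequal genes. The correlation of same-numbered day 3 and day 0 livers was 0.0143, -0.0154, -0.0112, 0.0806 and 0.0851 for mice 12 to 16, and only mice 15 and 16 correlated best with their own number. Correlations this small cannot decide whether equal numbers mark the same mouse. The numbers were not taken as pairs because the labels do not say that they are.

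With the livers labelled knockout in place of the wild-type challenged livers, 27 differences were called (3 higher, 24 lower), 1962 CCl4 responses and hepatectomy responses in 3.88%, with 22 toxin, 2 resection, 1 unequal and 317 shared genes. With those libraries added to the fit, 196 differences were called and the opposite class held 5.

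The settings that follow were chosen after seeing the data. Against D504 olive oil livers only, 194 differences were called, with 6 resection and 5 opposite genes. Against D505 olive oil livers only, 159 were called (28 higher) and 2186 CCl4 responses, with 8 opposite and 7 unequal genes. With CCl4 livers of D503 and olive oil livers of D504 only, 583 were called (168 higher, 415 lower) and hepatectomy responses in 14.8%, with 389 toxin, 31 resection, 19 opposite, 135 unequal and 1034 shared genes. Over genes whose control means were within 2-fold, 196 differences were called and the resection class held 11. Index could not be fitted as a term, since it cannot be told apart from day.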

Other observations

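The acute phase, complement and coagulation, and growth factor lists gave no called difference in the fit of all 20 livers, where 1.97% of all tested genes had one. Macrophage and interferon-stimulated genes, described above, did hold called differences. Of 24 acute phase genes, 8 rose and 2 fell after CCl4 and none changed after hepatectomy (1 rose and 1 fell without CCl4 liver 34), at medians of 0.91 and 0.71 log2, and the CCl4 median was 0.76 against the D504 and 1.83 against the D505 olive oil livers. Serpina3m, a protease inhibitor of the acute phase, rose by 2.05 log2 after CCl4, and its hepatectomy change of 0.78 and its difference of 1.27 were not called (edgeR). Of 23 complement and coagulation genes, which hepatocytes secrete, 10 fell after CCl4 and 3 after hepatectomy, the 3 being C6, C8b and Proc, which fell after both. Without CCl4 liver 34, 1 of the 23 had a lower difference. Of 15 growth factor and receptor genes of regeneration, 7 rose and 2 fell after CCl4, and 1 rose and 1 fell after hepatectomy. Those changed by both were Tnfrsf12a, the receptor for TWEAK, which rose by 3.25 log2 after CCl4 and by 1.81 after hepatectomy, and Lifr, the receptor for leukaemia inhibitory factor, which changed by -1.50 and -1.58. Hgf, the hepatocyte growth factor, rose by 1.74 after CCl4, and its hepatectomy change of 0.61 was not called. These genes were picked from their lists after the values were seen.

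The olive oil livers differed by index in 209 genes, 123 higher and 86 lower in D505 than in D504 livers (edgeR, adjusted p under 0.05), with 1565 at an unadjusted p under 0.05, and 2 of the 209 had a called difference of responses. Clock genes moved with the index: against the D504 livers 4 of 18 rose and 11 fell after CCl4, and against the D505 livers 1 rose and 1 fell, at medians of -1.22 and -0.01 log2. Dbp, a clock output gene, changed by -3.52 after CCl4 against D504 livers and by 0.11 against D505 livers. The part of index or hour of sampling in these values was not tested.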
